A study of Homo sapiens with 36 samples.

Results

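The comparison described here sets WI-38 fibroblasts at the end of a treatment with sodium dodecyl sulphate (SDS) against the same kind of cells in the first 2 days after the detergent was washed out. WI-38 is a strain of normal human lung fibroblasts. SDS at 0.0095% for 24 h injures the plasma membrane, and the cells go on to plasma membrane damage-dependent senescence (PMD-Sen). PMD-Sen D0 is the end of the treatment, and D1 and D2 are the first and second day after it. Each of these days had 2 libraries, so 6 of the 36 small RNA libraries of the series carried the comparison. All 6 came from cells that had received SDS, and the 1508 miRNAs of the deposited count table were all considered. Untreated proliferating cells (Ctrl, 2 libraries) served as the level without SDS. DDR-Sen cells, which were treated with doxorubicin (DXR), a drug that breaks DNA, on the same schedule of days (D0, D1 and D2, 6 libraries), showed the change over the same days without detergent.

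miRNAs are short RNAs that guide Argonaute proteins to messenger RNAs and lower their output. Bases 2 to 8 of the mature strand, the seed, set most of the pairing with a target. A precursor hairpin can give a 5p and a 3p strand, of which usually only one accumulates. A mature miRNA loaded into Argonaute is generally long-lived, so most miRNA levels move slowly, with exceptions such as miR-7, whose turnover is actively controlled in some tissues.

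The mature sequences of the miRNAs that carry the comparison come from RefSeq on GRCh38.p14, with the seed in capitals. First are the 4 with the smallest p-values among those called higher after removal. Exon means here that an exon of any annotated transcript, retained introns included, covers the mature strand. miR-7-5p, a miRNA that restrains growth factor signalling, is listed at 2 loci in the sequence set used, which may not hold every locus. The first lies within HNRNPK, by this rule in an exon, at chr9:83969811-83969834 on the minus strand. The second lies in an intron of MIR7-3HG at chr19:4770700-4770723 on the plus strand. miR-30c-2-3p, the lesser strand of its hairpin and one that responds to endoplasmic reticulum stress, lies in an exon of LINC00472 at chr6:71376964-71376985, minus strand. miR-7706 lies in an exon of AKAP13 at chr15:85380639-85380662, plus strand. miR-126-3p, best known from endothelium, lies in an intron of EGFL7 at chr9:136670653-136670674, plus strand.
miR-7-5p: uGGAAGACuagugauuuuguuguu
miR-30c-2-3p: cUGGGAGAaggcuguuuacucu
miR-7706: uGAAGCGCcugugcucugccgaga
miR-126-3p: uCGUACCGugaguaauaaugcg

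The next 4 had the smallest p-values among those called lower after removal. miR-1260b, at chr11:96341447-96341465 on the plus strand with no annotated gene over it on that strand, has a sequence that closely resembles the end of a leucine tRNA. miR-3605-5p lies in an intron of PHC2 at chr1:33332449-33332471, minus strand. miR-532-3p lies in an intron of CLCN5 at chrX:50003204-50003225, plus strand. miR-146a-5p, a target of NF-kB that damps inflammatory signalling, lies in an exon of MIR3142HG at chr5:160485372-160485393, plus strand. No 2 of these 8 share a seed, and miR-146b-5p is the only other tested miRNA with a sequence in RefSeq that has one of them, that of miR-146a-5p.
miR-1260b: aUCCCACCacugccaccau
miR-3605-5p: uGAGGAUGgauagcaaggaagcc
miR-532-3p: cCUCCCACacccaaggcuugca
miR-146a-5p: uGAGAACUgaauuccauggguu

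The D0 libraries were the shallowest of the series. They held 104436 and 81670 counts, against 276807 and 150594 at D1 and 378490 and 216336 at D2. A level of 3 counts per library, used as the floor, equals 27.6 and 33.4 CPM (depth-normalised counts, with TMM-scaled totals) at D0 and 7.51 to 18.9 CPM at D1 and D2. At D0, 464 and 408 miRNAs had a count, and 487 to 598 did at D1 and D2. When every library was thinned to 81670 counts, D0 showed 438.7 and 408 on average and D1 and D2 showed 427.7 to 442.5, so D0 replicate 1 lay within the later range and D0 replicate 2 below it. In such bulk libraries, a lower share of cells with a miRNA and less of it per cell cannot be told apart. The 8 fibroblast-expressed miRNAs summed to 193100 and 233700 CPM at D0 and to 179000 to 224000 CPM at D1 and D2, and their median log2 fold change was -0.21.

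The test was edgeR's quasi-likelihood test on the 360 miRNAs that passed a low-count filter, with all libraries in the fit. A miRNA is called, after the study's thresholds, where the p-value before adjustment is under 0.05 and the log2 fold change is beyond 1 in either direction. For D1 and D2 together against D0, 21 of 360 miRNAs (5.83%) were called, 13 higher (3.61%) and 8 lower (2.22%). This balance was not stable, with 10 higher and 19 lower without D1 replicate 1, 8 and 9 without D1 replicate 2, 8 and 11 without D2 replicate 1 and 12 and 11 in thinned libraries. No miRNA passed 0.05 after Benjamini-Hochberg adjustment in edgeR, where the smallest adjusted p was 0.105 (miR-1260b), while 39 (10.8%) had an unadjusted p below 0.05. DESeq2 on the same libraries gave 1 at adjusted p, miR-1260b. Over the alternatives the smallest edgeR adjusted p ran from 0.00206 without a low-count filter to 0.293 with only the 6 libraries in the fit, and with a library left out it was lowest, 0.00415, without D2 replicate 2. The value of 0.00206 was that of miR-7-5p, and miR-1260b was at 0.054 without a low-count filter. In 15 of the 21 (11 higher, 4 lower) the 2 D0 values lay outside the range of the 4 later ones. Over all 360 miRNAs, both D0 libraries lay below all 4 later ones for 32 (8.89%) and above them for 21 (5.83%).

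The calls sat among scarce miRNAs. Of the 168 miRNAs with a mean below 100 CPM over the 36 libraries, 16 were called (9.52%), and their median standard error was 0.75 on the log2 scale. Between 100 and 1000 CPM 5 of 109 were called (4.59%), with a median standard error of 0.32. None of the 83 above 1000 CPM was called, with a median standard error of 0.19 and log2 fold changes between -0.73 (miR-143-3p) and 0.74 (miR-31-5p). Of the 21 called miRNAs, 17 had at most 10 counts in both D0 libraries, as did 156 of all 360 tested.

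**Figure D1:**
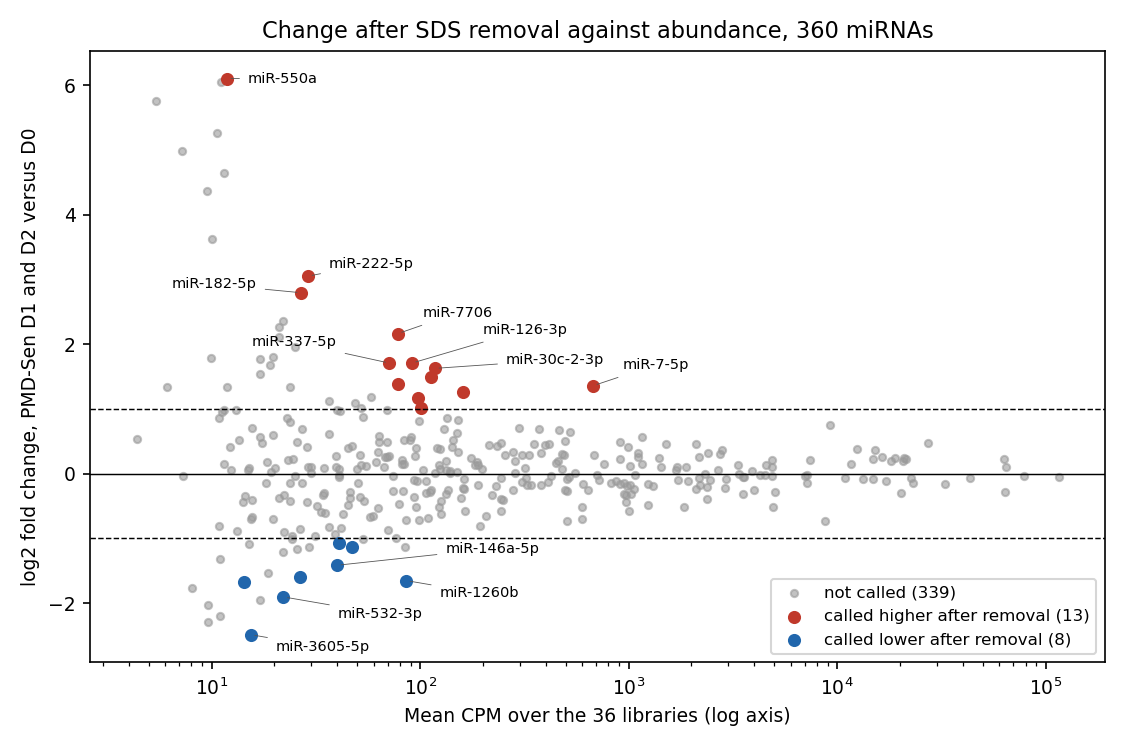
Log2 fold change of D1 and D2 versus D0 (vertical axis) against mean CPM over the 36 libraries (horizontal log axis) for 360 miRNAs. The 13 called higher are red, the 8 called lower blue and the rest grey, dashed lines mark a log2 fold change of 1 and -1, 12 of the called miRNAs are named, and no point above 1000 CPM is called.

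miR-7-5p was the most abundant of the called miRNAs. Its level was 395 and 346 CPM at D0 (43 and 31 counts), 1219 and 496.6 at D1 and 1337 and 731 at D2, and Ctrl had 1207 and 1782. Both D0 libraries were below all 4 later ones, and replicate 1 was higher than replicate 2 on both later days. The log2 fold change of D1 and D2 against D0 was 1.36 ± 0.38 (SE; edgeR adjusted p = 0.151). Without D1 replicate 1 it was 0.95 and no longer called. The edgeR adjusted p of miR-7-5p was 0.00206 without a low-count filter and 0.293 with only the compared libraries in the fit. At D0 miR-7-5p was 2.01 lower than in Ctrl on the log2 scale, a comparison that shares the D0 libraries with the one above, and so is no independent support for this or any other miRNA chosen for its level at D0. It was the 1 miRNA of 360 (0.278%) past adjusted p there (adjusted p = 0.0133), beside 19 called (5.28%; 8 higher, 2.22%, and 11 lower, 3.06%). Against Ctrl 26 miRNAs were called at D1 (7.22%; 16 higher, 4.44%, and 10 lower, 2.78%) and 23 at D2 (6.39%; 11 higher, 3.06%, and 12 lower, 3.33%), with 8 (2.22%) and 9 (2.5%) past adjusted p. Over D1 and D2 the log2 difference from Ctrl was -0.65 (adjusted p = 0.305), so the point estimate stayed below that of untreated cells.

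miR-30c-2-3p had 36.8 and 44.6 CPM at D0 (4 counts in each library), 121 and 94.3 at D1 and 115 and 177 at D2. Its Ctrl values were 133 and 68.6 CPM. The 2 D0 libraries were the lowest of all 36, the next being at 50.7 CPM. The log2 fold change after removal was 1.63 ± 0.44 (SE; edgeR adjusted p = 0.151), and it lay between 1.47 and 1.77 when any 1 of the 6 libraries was left out. D0 was 1.28 below Ctrl and D1 and D2 were 0.34 above Ctrl on the log2 scale, the second with an adjusted p of 0.651. Of the 7 tested strands listed for the rest of the miR-30 family, 5p and 3p together, 0 were called, where 5.83% of all tested miRNAs were, with a median log2 fold change of -0.05. miR-30c-5p, which the same hairpin also gives, was at -0.38 ± 0.25 and not called. MIR30C1 gives miR-30c-5p as well, so its level does not isolate this hairpin. Between libraries of the same number its log2 change was 0.45 in replicate 1 and -1.28 in replicate 2.

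miR-7706 had 3 and 2 counts at D0 (27.6 and 22.3 CPM), which is at the floor. It reached 69.6 and 194.9 CPM at D1 and 60.1 and 151 at D2, and Ctrl held 107 and 94.4. As with miR-30c-2-3p, both D0 libraries were the lowest of the 36. The ratio of pooled counts scaled by depth was 4.08, with a 95% counting interval of 1.7 to 12.8, and the fitted log2 fold change was 2.16 ± 0.64 (SE; edgeR adjusted p = 0.153). Against Ctrl it was -1.99 at D0 and 0.18 over D1 and D2.

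Of the other miRNAs called higher, let-7b-3p (fitted log2 fold change 1.17) and miR-1226-3p (1.02) were scarce at D0. let-7b-3p is the minor strand of a let-7 hairpin, and miR-1226-3p is a mirtron, cut from an intron by splicing. let-7b-3p had 46 and 22.3 CPM at D0 and 67.3 to 88 later, and miR-1226-3p had 46 and 66.9 at D0 and 58.6 to 153 later. Both fell short of a call in 9 of 15 alternative settings. let-7b-3p did so without D0 replicate 2 (0.78), either D1 library (1.19 and 1.15) or D2 replicate 1 (1.11), and miR-1226-3p without either D0 library (0.76 and 1.29), D1 replicate 2 (0.66) or D2 replicate 1 (0.88). miR-154-3p, from the 14q32 cluster, had 55.1 and 78 CPM at D0 and 75.4 to 250 later (1.27), and miR-365b-5p, a minor strand, had 82.7 and 44.6 at D0 and 87.9 to 358 later (1.49). For miR-154-3p D0 replicate 2 lay above the lowest later library, and for miR-365b-5p the groups did not overlap. The call of miR-154-3p was lost without D0 replicate 1 (1.02), D1 replicate 1 (0.87) or D2 replicate 1 (0.96), and that of miR-365b-5p without either D0 library (2.03 and 1.15), D1 replicate 2 (0.85) or D2 replicate 2 (1.22).

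**Figure D2:**
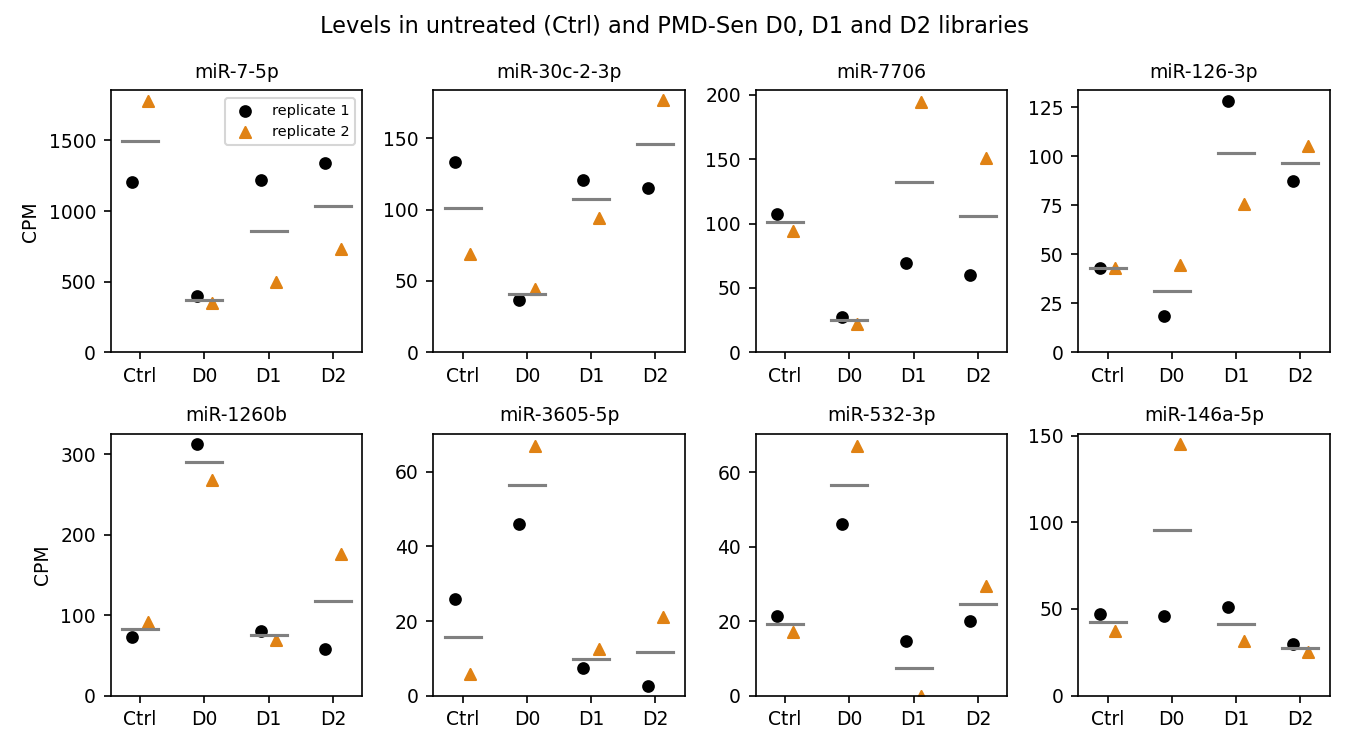
CPM (vertical axes, each from 0) of 8 miRNAs in the Ctrl, PMD-Sen D0, D1 and D2 libraries. Circles are replicate 1, triangles replicate 2 and grey bars the mean of the 2. The upper row was called higher and the lower row called lower at D1 and D2 than at D0. miR-1260b was at 312 and 267 CPM at D0, and for miR-146a-5p only D0 replicate 2 was above the later libraries.

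A second group of miRNAs called higher was at a similar level in D0 and Ctrl and exceeded both later. miR-126-3p had 18.4 and 44.6 CPM at D0 (2 and 4 counts) and 43 and 42.9 in Ctrl. It had 128 and 75.4 CPM at D1 and 87.7 and 105 at D2, above both earlier groups in each library. The log2 fold change against D0 was 1.71 ± 0.54 (SE; edgeR adjusted p = 0.177), and against Ctrl it was 1.21 (adjusted p = 0.107). Without D0 replicate 1 it was 1.16 and no longer called. miR-126-5p, the other strand of this endothelial hairpin, had 0 counts in 5 of the 6 libraries and 1 in the other, and RNA from another cell type as a source was not tested.

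miR-337-5p, also from the 14q32 cluster, had 3 counts in each D0 library (27.6 and 33.4 CPM), 117 and 56.6 CPM at D1 and 135 and 79.9 at D2, with 21.5 and 42.9 in Ctrl. The ratio after removal was 3.53, with a 95% counting interval of 1.57 to 9.81. Its log2 fold change against Ctrl was 1.56 (adjusted p = 0.134). The other strand, miR-337-3p, had 119 and 323 CPM at D0 and 264 to 428 later, a log2 fold change of 0.70 ± 0.30 (adjusted p = 0.396, not called), and against Ctrl it was 1.5 over D1 and D2 (adjusted p = 0.000978). miR-337-5p was no longer called without either D0 library (1.57 without replicate 1, 1.84 without replicate 2), without D1 replicate 1 (1.37) or without D2 replicate 1 (1.48).

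A rule for miRNAs that may have appeared, at most 3 counts in both D0 libraries and called higher later, was met by 5. Of all 360 tested, 62 had at most 3 counts in both D0 libraries. Besides miR-7706 and miR-337-5p they were miR-182-5p, miR-222-5p and the joint entry miR-550a-3-5p|miR-550a-5p. miR-182-5p, a sensory and epithelial miRNA, had 0 and 1 counts at D0 and 18, 8, 11 and 4 later, a ratio of 7.61 with a 95% counting interval of 1.29 to 308. miR-222-5p, the minor strand of a hairpin whose miR-222-3p lowers the cell cycle inhibitor p27, had 1 and 0 counts at D0 and 5, 16, 21 and 3 later, a ratio of 8.35 (interval 1.42 to 337). miR-550a-3-5p|miR-550a-5p had 0 counts in both D0 libraries and 5, 1, 16 and 3 later. The lower 95% counting limit of its ratio was 1.17, but its mean at D1 and D2 was below the D0 floor, at 0.774 of it, so no fold is given. Thinning the libraries to equal depth, done as a single random draw, removed the call of these 3 and of 5 others among the 21. The 5 others were miR-668-3p, let-7b-3p, miR-3177-3p, miR-296-3p and miR-487b-5p. miR-182-5p, miR-222-5p and miR-550a were already counted in Ctrl (3 and 6, 4 and 20, and 8 and 3 counts). miR-182-5p also lost it without D0 replicate 1 (1.70 on the log2 scale), and miR-222-5p without either D0 library (2.21 without replicate 2, and against a D0 library at 0 without replicate 1), D1 replicate 2 (2.27) or D2 replicate 1 (2.32). The call of miR-550a was also lost without either D0 library, D1 replicate 1 or D2 replicate 1, and with only the compared libraries in the fit. No miRNA called lower was at 3 counts or less in all 4 later libraries.

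miR-668-3p, the third 14q32 miRNA called higher, had 6 and 0 counts at D0 and 13 to 25 later. Its log2 fold change of 1.39 was 0.50 without D0 replicate 2, the library at 0, and not called. Without D0 replicate 1 the call was kept at a fitted 8.13, which is against a lone D0 library at 0 and so sets no size. The call was also lost without D1 replicate 2 (1.33) or D2 replicate 2 (1.19).

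Among the miRNAs called lower, miR-1260b had the smallest p-value of the comparison. It had 312 and 267 CPM at D0 (34 and 24 counts), 80.6 and 69.1 at D1 and 57.6 and 177 at D2, and Ctrl held 73 and 91.5. The D0 libraries were the highest of the 36, and the next was D2 replicate 2 at 177 CPM. The log2 fold change was -1.65 ± 0.40 (SE; edgeR adjusted p = 0.105), it lay between -2.14 and -1.33 when 1 library was left out, and the call was kept in all 15 alternatives. At D0 miR-1260b was 1.81 above Ctrl on the log2 scale (adjusted p = 0.0585), and over D1 and D2 the difference from Ctrl was 0.15 (adjusted p = 0.892). Of the 6 tested miRNAs listed for overlap with tRNA, snRNA, rRNA or snoRNA, it was the 1 called, where 5.83% of all tested miRNAs were, and the median of the list was -0.42 against 0.03 over all 360. miR-664a-3p, which overlaps SNORA36B, had 211 and 11.1 CPM at D0 (23 and 1 counts), and its log2 fold change of -0.42 became 2.94 without D0 replicate 1. miR-4286 had a log2 fold change of -0.42 and was not called.

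miR-3605-5p had 46 and 66.9 CPM at D0 (5 and 6 counts) and 2.5 to 21 later, with Ctrl at 25.8 and 5.72. The fitted log2 fold change was -2.49 ± 0.84 (SE; edgeR adjusted p = 0.222). miR-532-3p had the same D0 values, 0 to 29.4 CPM later and 21.5 and 17.2 in Ctrl, with a log2 fold change of -1.90 ± 0.65 (edgeR adjusted p = 0.222). For both, D0 was above all 4 later libraries. Neither was called without D0 replicate 2, where they were at -2.21 and -1.63. miR-3605-5p was at -1.97 without D2 replicate 1 and at -3.43 without D2 replicate 2. Without D1 replicate 1 miR-532-3p was fitted at -4.41, against a lone D1 library at 0 counts. The other strands did not follow, with miR-3605-3p at 1.01 ± 0.64 and miR-532-5p at 0.13 ± 0.31.

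miR-146a-5p had 46 CPM in D0 replicate 1 and 145 in replicate 2, and 25.2 to 51.3 later, so replicate 1 lay within the later range. Its log2 fold change of -1.42 ± 0.55 was -0.41 without D0 replicate 2 and not called. Both strands of the miR-296 hairpin were called lower. miR-296-3p (-1.14) had 184 and 78 CPM at D0, 106 and 132 at D1 and 47.6 and 8.41 at D2, and fell short of a call without D0 replicate 1 (-0.37), D1 replicate 1 (-1.06) or D2 replicate 2 (-0.83). miR-296-5p (-1.68) had 64.3 and 44.6 CPM at D0, 7.32 and 12.6 at D1 and 5.01 and 63.1 at D2, where replicate 2 overlapped D0, and its call was lost without either D0 library (-1.38 and -1.90), D1 replicate 1 (-1.48) or D2 replicate 1 (-1.16). miR-3177-3p (-1.59) and miR-487b-5p (-1.08) rest on 3 to 9 counts per D0 library. The call of miR-3177-3p was lost without D0 replicate 2 (-0.71), D1 replicate 1 (-1.32) or D2 replicate 1 (-1.26), and that of miR-487b-5p without D0 replicate 1 (-0.75).

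Taken by day, 14 miRNAs were called at D1 against D0 (3.89%; 9 higher, 2.5%, and 5 lower, 1.39%, or 7 and 7 when scaled by total counts) and 23 at D2 against D0 (6.39%; 13 higher, 3.61%, and 10 lower, 2.78%). The split became 11 higher and 19 lower at D1 without D1 replicate 1, and at D2 15 and 20 without D2 replicate 1 and 10 and 14 with the GC trend described further on removed. No adjusted p from edgeR was below 0.05 on either day, with 21 (5.83%) and 40 (11.1%) unadjusted p-values below it. DESeq2 at adjusted p gave 1 miRNA at D1, miR-1260b at -1.97, and 5 at D2. Those 5 were miR-7-5p at 1.48, miR-31-5p at 0.90, miR-503-5p at -0.72, miR-25-3p at -0.94 and miR-296-3p at -2.11. miR-7-5p, miR-30c-2-3p, miR-7706, miR-126-3p, miR-1260b and miR-3605-5p were called on both days. Their log2 fold changes at D1 and at D2 were 1.23 and 1.49 for miR-7-5p, 1.43 and 1.82 for miR-30c-2-3p, 2.32 and 2.01 for miR-7706, 1.77 and 1.64 for miR-126-3p, -1.94 and -1.37 for miR-1260b, and -2.54 and -2.44 for miR-3605-5p. With the GC trend removed miR-7-5p was at 0.96 at D1 and no longer called there, while its D2 call and the calls of the other 5 on both days were kept.

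D2 against D1 gave 10 calls (2.78%; 4 higher, 1.11%, and 6 lower, 1.67%, or 5 and 2 when scaled by total counts) and 1 miRNA at adjusted p (0.278%). That miRNA, named after its values were seen, was miR-1185-1-3p of the 14q32 cluster. It had 175 and 267 CPM at D0, 91.5 and 75.4 at D1 and 301 and 198 at D2, with 215 and 223 in Ctrl. D1 was therefore below every other library of these 4 groups. The log2 fold change of D2 against D1 was 1.57 ± 0.34 (SE; edgeR adjusted p = 0.0246). Its edgeR adjusted p was 0.18 without D1 replicate 1, 0.385 without D1 replicate 2 and 0.505 without D2 replicate 1. It was 0.089 without a low-count filter, 0.181 in thinned libraries and 0.99 with only the compared libraries in the fit.

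Several abundant miRNAs had a small p-value and a log2 fold change within 1. miR-31-5p, a miRNA of injured and inflamed tissue, had 10918 and 7813 CPM at D0, 13829 and 14263 at D1 and 15941 and 19184 at D2, with Ctrl at 7962 and 6810. All 4 later libraries were above both D0 libraries, and the log2 fold change was 0.74 ± 0.22 (SE; edgeR adjusted p = 0.153). Against Ctrl it was 0.34 at D0 (adjusted p = 0.63) and 1.09 over D1 and D2 (adjusted p = 0.00196), and D2 replicate 2 was the highest of all 36 libraries. miR-143-3p, a miRNA of smooth muscle and fibroblasts, had 7389 and 14110 CPM at D0 and 4928 to 8034 later, so D0 replicate 1 lay within the later range, with a log2 fold change of -0.73 ± 0.32 (edgeR adjusted p = 0.396). miR-125a-5p had 25061 and 17432 CPM at D0 and 26294 to 33843 later, a log2 fold change of 0.48 ± 0.16 (edgeR adjusted p = 0.222). miR-503-5p, a cell cycle miRNA of the miR-15/16 family, had 2546 and 1739 CPM at D0 and 1169 to 1854 later, with a log2 fold change of -0.51 ± 0.16 (adjusted p = 0.18). miR-25-3p, of the miR-106b-25 cluster, had 607 and 1092 CPM at D0 and 399 to 660 later, at -0.73 ± 0.23 (adjusted p = 0.177). Without D0 replicate 1, miR-31-5p (1.01), miR-143-3p (-1.12) and miR-25-3p (-1.10) passed the thresholds of a call. Without D0 replicate 2 the same miRNAs were at 0.52, -0.19 and -0.25, and miR-503-5p was at -0.21 without D0 replicate 1, so the size of these changes depended on which D0 library was kept. let-7a-5p, the most abundant of the let-7 family, was at 116841 and 98706 CPM at D0 and 83795 to 132382 later, at -0.06 ± 0.17.

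The lists below are to be read against all 360 tested miRNAs, of which 21 were called (5.83%; 3.61% higher and 2.22% lower), with a median log2 fold change of 0.03, and against the 0 calls among the 83 above 1000 CPM. Of the miR-17-92 and paralogous clusters, which drive proliferation, 0 of 12 tested members were called (median -0.08, miR-92a-3p at 0.25 and miR-93-5p at -0.11). Of the miR-15/16 family 0 of 8 were called (median -0.20), of the let-7 family 0 of 9 (median -0.12), and of the miR-23/27/24 clusters 0 of 9 (median -0.06). Of the p53 targets 0 of 6 were called, with a median of -0.21 and miR-34a-5p at 0.51 ± 0.30, and it had 239 and 234 CPM at D0 and 294 to 396 later. Of the 13 tested miRNAs tied to matrix and TGF-beta, 0 were called (median -0.32).

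Among 11 miRNAs of inflammation and CREB signalling, 1 was called lower (miR-146a-5p), where 2.22% of all tested miRNAs were, and the median was -0.59. miR-132-3p, which CREB induces, had 1470 and 814 CPM at D0 and 567 to 901 later, at -0.71 ± 0.30 (adjusted p = 0.396, not called). miR-21-5p and miR-155-5p were at -0.28 ± 0.29 and 0.14 ± 0.22. Of 4 tested miRNAs tied to endoplasmic reticulum stress, 1 was called (miR-30c-2-3p), and the list median was 1.16, or 0.35 with miR-455-5p, which had 0 counts at D0, at no change. miR-708-5p of that list was at 0.69 ± 0.37 and miR-455-3p at -0.10. The 14q32 cluster had 51 tested members, of which 3 were called higher (miR-154-3p, miR-337-5p and miR-668-3p) and 0 lower, where 3.61% and 2.22% of all tested miRNAs were, with a median of 0.12. miR-487b-5p, called lower, lies in the same region but was not on that list. Its abundant members miR-409-3p, miR-493-5p and miR-494-3p were at 0.23, -0.02 and 0.21.

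Of the markers of other cells, 1 of 7 erythroid and leukocyte, 1 of 6 epithelial and 1 of 1 hepatocyte miRNAs passed the filter. The erythroid and leukocyte markers summed to 303 and 145 CPM at D0 and to 175 to 509 later, and the epithelial ones to 55.1 and 55.7 at D0 and to 82.7 to 163 later. miR-223-3p, miR-142-5p, miR-141-3p, miR-205-5p, miR-124-3p and miR-9-5p had 0 counts in all 6 libraries. miR-486-5p of red cells had 303 and 134 CPM at D0 and 173 to 496.6 later. The epithelial miR-200c-3p had 46 and 33.4 CPM at D0 and 54.6 to 151 later, and at D1 alone it was called higher (1.43). With the GC trend removed it was not called at D1. miR-122-5p of hepatocytes had 129 and 167 CPM at D0 and 105 to 264 later. The part of such RNA in the calls was not tested.

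The DXR series tests whether the change over the same days depends on the agent. The difference between the series was called for 16 of 360 (4.44%; 11 higher after SDS, 3.06%, and 5 lower, 1.39%, or 12 and 15 without SDS D1 replicate 1 and 11 and 10 with the GC trend removed), 1 (0.278%) passed adjusted p, and 27 (7.5%) had an unadjusted p below 0.05. In the DXR series itself 6 were called (1.67%; 2 higher, 0.556%, and 4 lower, 1.11%) and 0 at adjusted p by edgeR, with 17 (4.72%) at an unadjusted p below 0.05. miR-1260b had 27.9 and 33 CPM at DXR D0 (13 and 11 counts) and 55.6 to 86 at DXR D1 and D2, a log2 fold change of 1.13. Both DXR D0 libraries lay below both Ctrl libraries, and no DXR D1 or D2 library was above the higher Ctrl one. The DXR estimate was thus upward from a low D0, while the SDS estimate was downward from a high D0. The difference was -2.79 ± 0.61 (SE; edgeR adjusted p = 0.0283; DESeq2 adjusted p = 0.00407). The edgeR adjusted p of miR-1260b was no longer below 0.05 with only the compared libraries in the fit (0.108). It was also lost without SDS D0 replicate 1 (0.164), D0 replicate 2 (0.0774), D1 replicate 1 (0.0503) or D2 replicate 1 (0.0577). Of the 6 DXR libraries, leaving out D0 replicate 1 (0.142), D0 replicate 2 (0.176), D1 replicate 2 (0.0851), D2 replicate 1 (0.0524) or D2 replicate 2 (0.0598) ended it as well. miR-7-5p had 1251 and 1176 CPM at DXR D0 and 634 to 1111 later, a log2 fold change of -0.58, and the difference of 1.94 ± 0.49 had an adjusted p of 0.0755 in edgeR and 0.0219 in DESeq2. With the GC trend removed this difference was 1.78, with an edgeR adjusted p of 0.00394. The differences for miR-337-5p (2.77 ± 0.85) and miR-126-3p (1.96 ± 0.63) had an adjusted p of 0.302 in edgeR. miR-30c-2-3p was higher after removal in both series, at 1.63 after SDS and 0.87 after DXR, and its difference was not called.

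**Figure D3:**
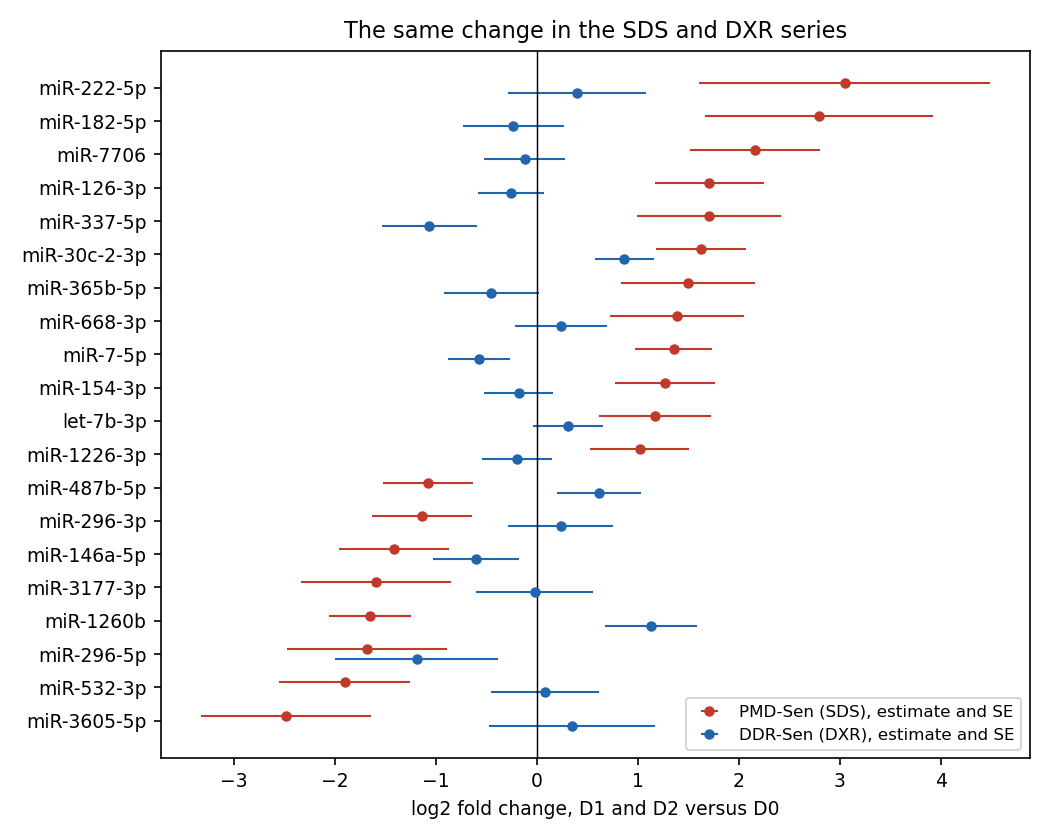
Log2 fold change of D1 and D2 versus D0 (horizontal axis, point and SE) in the PMD-Sen (red) and DDR-Sen (blue) series for 20 of the miRNAs called in PMD-Sen; miR-550a, at 0 counts in D0, is left out. The red points were chosen by their own value, and for miR-1260b the estimates are -1.65 and 1.13.

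Over the later days of PMD-Sen the levels did not all stay where they were at D2. Mean miR-7-5p was 370 CPM at D0, 858 at D1, 1034 at D2, 884 at D3, 677 at D4, 445 at D6, 612 at D8 and 594 at D16. Mean miR-1260b stayed between 56.7 and 79.3 CPM from D3 to D16. Mean miR-30c-2-3p was 146 CPM at D2 and 72.4 at D3, and mean miR-126-3p was 96.4 at D2 and 54.6 at D3, and by D16 both were at 127 CPM. Mean miR-31-5p was 17563 CPM at D2 and 5847 at D16. No test was run between these later days.

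**Figure D4:**
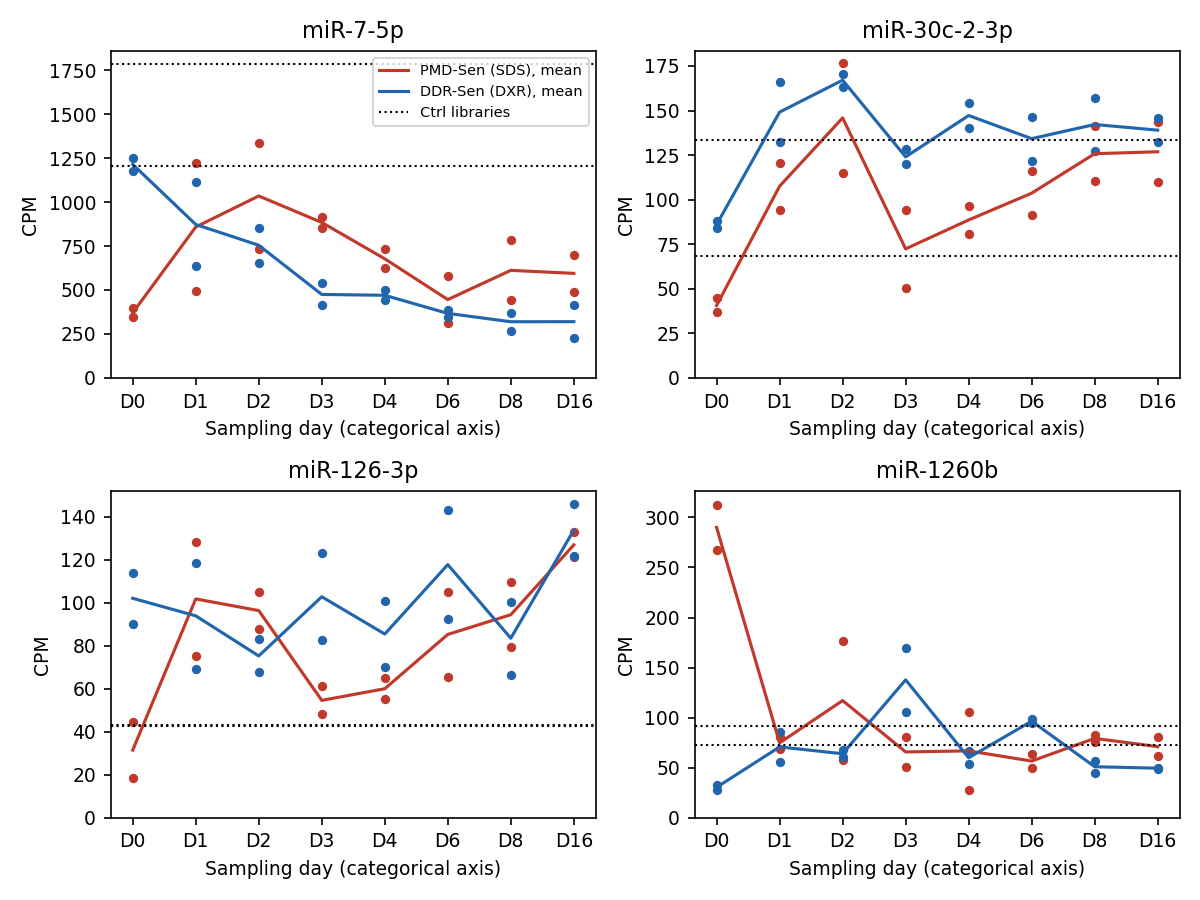
CPM (vertical axes, from 0) of miR-7-5p, miR-30c-2-3p, miR-126-3p and miR-1260b by sampling day (categorical axis) in the PMD-Sen (red) and DDR-Sen (blue) series. Points are libraries, lines join the means of 2, and dotted lines are the Ctrl libraries; miR-7-5p and miR-1260b at D0 lie on opposite sides of their later PMD-Sen levels at D1 to D4.

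The replicates of these 3 days differed from each other more than counting error gives, with a chi-square per degree of freedom of 24, 37.3 and 29.8 at D0, D1 and D2. Between replicates the log2 CPM had r of 0.937 at D0, 0.952 at D1 and 0.963 at D2 over 360 miRNAs, against 0.976 in Ctrl. Replicates of the same number were set side by side across days, although the labels do not say that a number marks a shared culture or batch, and the D0 numbers may not match those of D1 and D2. For the 83 miRNAs above 1000 CPM, the change from D0 within replicate 1 and that within replicate 2 had r = -0.58, and 26 of 83 (31.3%) had the same sign, against 152 of 360 (42.2%) over all tested miRNAs. miR-21-5p had 44498 CPM in D0 replicate 1 and 95507 in D0 replicate 2, then 77263 and 37300 at D1 and 69764 and 46221 at D2. The difference between replicates followed the GC content of the mature sequence: over 76 of those miRNAs with a sequence, Spearman's rho of GC content with replicate 2 minus replicate 1 was -0.52 at D0, 0.74 at D1, 0.69 at D2 and 0.08 in Ctrl. The miRNAs of 1 library share its depth and base composition, so no p is given.

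For the same 76 miRNAs the change estimated over both replicates had a rho of 0.23 with GC content. With a GC trend removed from each library, over 329 miRNAs with a sequence, the biological coefficient of variation was 17.9%, against 20.8% for the same miRNAs with the trend kept. Removal gave 21 calls, 10 higher and 11 lower, and the same miRNAs with the trend kept gave 20, 12 higher and 8 lower, with 18 called in both. miR-1260b was then at -1.75 with an adjusted p of 0.021 in edgeR, against 0.0868 with the trend kept. The origin of the GC trend was not tested.

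**Figure D5:**
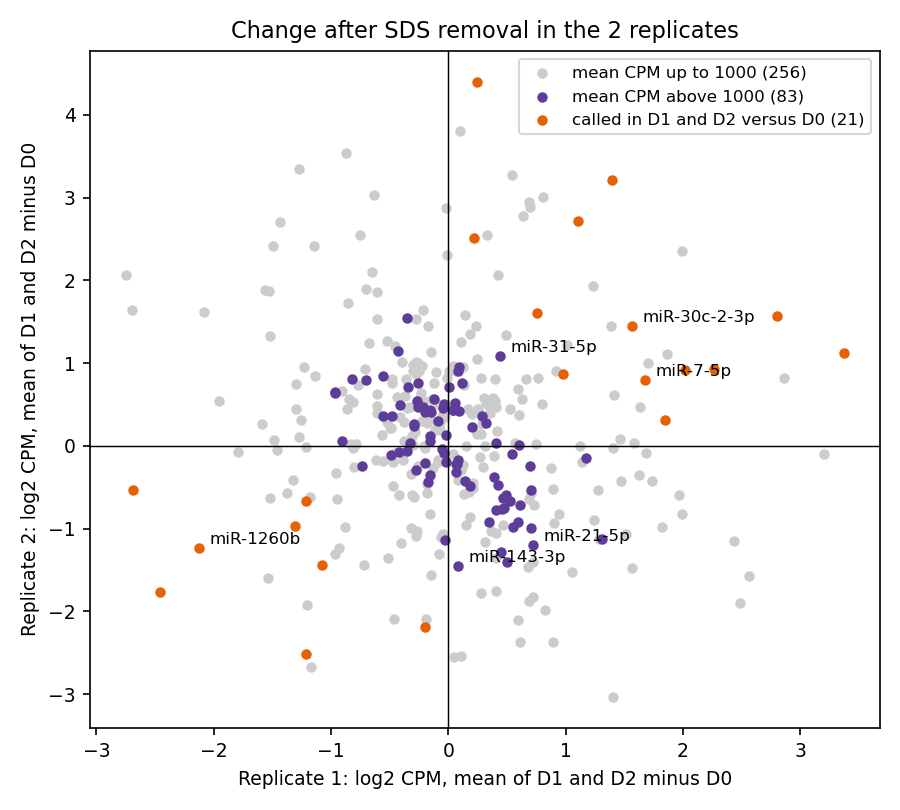
Log2 CPM of the mean of D1 and D2 minus D0 in replicate 1 (horizontal axis) and replicate 2 (vertical axis) for 360 miRNAs. The 21 called miRNAs (orange), chosen by their change over these libraries, lie in the quadrants where both replicates have the same sign, while those above 1000 CPM that were not called (violet) run from upper left to lower right, with r = -0.58.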

How the data were processed

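Small RNA of 36 WI-38 libraries (18 conditions, 2 biological replicates each per the labels) was counted by the authors with the exceRpt pipeline on GRCh38 and miRBase. Values in the deposited table are raw expected counts, 1 row for each mature miRNA. Reads that fit several miRNAs are split, so 1003 of 54288 values are not whole, and 18 names join several miRNAs. Values were rounded.

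edgeR 4.0.16 in R 4.3.3 was fitted on all libraries (TMM, filterByExpr on condition, quasi-likelihood test), which kept 360 of 1508 miRNAs, at least 99.8% of each library. Residual degrees of freedom were 18. Each SE given for a log2 fold change was worked back from the test, as the absolute log2 fold change over the square root of its F statistic. A call needs p under 0.05 before adjustment and a log2 fold change beyond 1 in either direction, and Benjamini-Hochberg adjustment ran over 360 miRNAs. log2 CPM used a prior count of 2. Alternatives were DESeq2 1.42.0, other scaling and filters, only the compared libraries, a replicate block, thinning, a GC correction and leaving out each SDS D0, D1 and D2 library (for the SDS and DXR difference, the DXR ones too). For the calls, thinning was a single random draw from the SDS D0, D1 and D2 libraries, with the others at full depth. Intervals of ratios are exact and cover counting error only.

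Named miRNAs were up to 12 highest and 12 lowest among those called, those past adjusted p, called and the 3 most abundant members of each list, the 4 smallest p-values of the SDS and DXR difference, and miRNAs at 3 counts or less in a group. Other miRNAs, among them the abundant ones with a small unadjusted p, were chosen after their values were seen. Members and lists were chosen with earlier results of these data known. mRNA and qPCR data were not analysed here.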

Additional observations from a re-analysis of the deposited data

Results flagged for a closer look

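miR-1260b was picked out because its change from D0 to D1 and D2 differed between the SDS and the DXR series, by -2.79 on the log2 scale (edgeR interaction, adjusted p = 0.0283). The difference shares the SDS D0 libraries with the main comparison, where miR-1260b had the smallest p-value. The study had already reported miR-1260b as raised only at D0 of PMD-Sen, not later and not in DDR-Sen or replicative senescence. miR-1260b was lower after SDS removal in all 4 libraries. From a DXR D0 level below both Ctrl libraries, it was higher after DXR removal in all 4. Its adjusted p was 0.0503 to 0.164 without either SDS D0 library, SDS D1 replicate 1 or SDS D2 replicate 1, and 0.0524 to 0.176 without any 1 of 5 DXR libraries (0.016 without DXR D1 replicate 1). It was 0.108 with only the compared libraries in the fit.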

How the results depend on the processing

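The count of calls for D1 and D2 against D0 (21) stayed within 1.5 times under other scaling, thinning, no filter (31) and leaving out a library (17 to 29). The count hides which miRNAs: of the 21, 10 and 9 were also called without D0 replicate 1 and 2, 13 without D1 replicate 1 or D2 replicate 1, 16 without D1 replicate 2 and 18 without D2 replicate 2. It was 8 with a mean of at least 10 counts, 11 with only the compared libraries, 0 at edgeR's adjusted p and 1 at DESeq2's. For D1 against D0 (14) it was 24 without a filter, 7 with a mean of at least 10 counts, 14 to 30 with a library left out (30 without D1 replicate 1, 26 and 24 without D0 replicate 1 and 2), 0 at edgeR's adjusted p and 1 at DESeq2's. For D2 against D0 (23) it was 38 without a filter, 13 with a mean of at least 10 counts, 15 with only the compared libraries, 22 to 35 with a library left out (35 without D2 replicate 1), 0 at edgeR's adjusted p and 5 at DESeq2's. For D2 against D1 (10) it was 29 without a filter, 3 with a mean of at least 10 counts, 5 with only the compared libraries, 10 to 30 with a library left out (30 without D1 replicate 1, 19 without D2 replicate 1), and 1 at either adjusted p. For the SDS and DXR difference (16) it was 12 to 39 with an SDS or DXR library left out (39 without SDS D0 replicate 1, 27 without SDS D1 replicate 1, 29 without DXR D0 replicate 1), 1 at edgeR's adjusted p and 2 at DESeq2's. A lone library left in a group was assumed to vary like the others. miR-664a-3p went from -0.42 to 2.94 without D0 replicate 1 and to -1.27 without D0 replicate 2. The smallest edgeR adjusted p of D2 against D0, 0.0859, was below 0.05 without a filter (0.00131), with a mean of at least 10 counts (0.0222) and without either D0 library or D2 replicate 1 (0.0268 to 0.0436), and with the GC trend removed (0.044, with miR-7-5p, miR-31-5p and miR-30c-2-3p among those past it). With the GC trend removed, that of D1 against D0 was 0.0481 (miR-1260b). The cause of these shifts was not tested.

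Thinning to 81670 counts gave 23 calls, of which 13 were also called at full depth. No call of miR-7-5p, miR-30c-2-3p, miR-7706, miR-126-3p or miR-1260b was lost. This was a single random draw from the SDS D0, D1 and D2 libraries, with the others at full depth. Which scarce miRNAs would keep a call in another draw is not shown. Replicate numbers were not taken to pair the samples: deviations of same-numbered libraries had r of -0.25 (D0 and D1) and -0.22 (D0 and D2) but 0.33 (D1 and D2), so the D0 numbers ran opposite to the others, and whether they are crossed was not settled. The replicate block gave 21, 14, 22, 9 and 17 calls for the 5 comparisons in the order above, and with the D0 numbers crossed, chosen after seeing the data, 21, 15, 23, 10 and 17. Restricting the test to the 329 miRNAs with a sequence, GC trend kept, gave 20, 15, 22, 10 and 16 calls in the same order. The GC correction, this restriction, leaving out DXR libraries, DESeq2's adjusted p and thinned detection counts were also chosen after seeing the data. D0 depth limits the comparison: 3 counts equal 27.6 and 33.4 CPM there, so scarce miRNAs could not be told from 0.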
